A study of Mus musculus with 6 samples.

Results

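The genes described here build and operate the mitotic spindle, and they comprise 57 members chosen by name, from the spindle checkpoint kinase Bub1 to the mitotic transcription factor Foxm1. A member was measured where the annotation of the array gave a probe set that gene symbol alone, which held for 56 of the 57 among 18193 genes in all. No probe set carried Ccnb1 alone, and Sgol1 and Sgol2a were found under their current symbols, Sgo1 and Sgo2a. The 56 genes have 132 probe sets of the 45037 tested, and the probe set brightest on average stood for each gene. The expression of these genes was compared between 3 arrays of mature adipocytes (AC) and 3 arrays of dedifferentiated fat (DFAT) cells. AC were primary mouse adipocytes isolated from fat tissue, with no treatment named in the labels. DFAT cells came from adipocytes that lost their lipid in ceiling culture, in which floating fat cells attach to the upper face of a flask, and they were then grown to semiconfluence. The methods describe DFAT as a preadipocyte line established from GFP transgenic mice, and AC are not said to carry GFP, while strain, sex and age are not given for either group. DFAT cells may thus be a single line, and whether the 3 arrays in a group had RNA of different animals or dishes is not said by labels or methods. The p-values therefore measure the spread between these arrays, which may be technical.

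Cells enter mitosis when Cdk1 is bound by A- and B-type cyclins and is freed of inhibitory phosphate by Cdc25 phosphatases. Kinetochores then assemble on centromeres and bind spindle microtubules, the checkpoint holds the anaphase promoting complex back until all chromosomes are attached, and separase cuts cohesin once securin is destroyed. Mature adipocytes are terminally differentiated and rarely divide, and transcripts of most of these genes are known to peak in G2 and mitosis of dividing cells.

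Values were log2 expression values after RMA, which corrects the background, brings arrays to 1 distribution and summarizes the probes of a probe set. The 13 white adipocyte markers measured had a mean of 12.95 to 13.19 on the AC arrays and of 6.15 to 6.19 on the DFAT arrays, and all 13 were lower in DFAT cells, 8 of them at background level. Of 9 stromal fibroblast markers, 8 were higher in DFAT cells and 1 did not pass the test. Markers of other cell types were above background level in AC. The 15 endothelial markers had means of 9.65, 7.92 and 7.74 on AC replicates 1, 2 and 3, and the 15 macrophage and leukocyte markers had 6.58, 8.06 and 8.19. On the DFAT arrays these means were 4.28 to 4.30 and 4.33 to 4.44, with 12 of 15 at background level for each list. The 10 epithelial markers had means of 8.98 to 9.65 in AC and 4.92 to 4.98 in DFAT cells, and 9 of them were lower in DFAT cells. Over all probe sets, AC replicate 1 correlated with the remaining AC arrays at a Pearson r of 0.971 and 0.969, against 0.992 between those 2 and 0.995 to 0.996 within DFAT. In samples of whole RNA, fewer cells of a type and less RNA per cell cannot be told apart.

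Genes with peak transcript levels in G2 and mitosis often carry a cell cycle genes homology region (CHR), TTTGAA, near the start of transcription, together with CCAAT boxes. The CHR is known to be bound by the MuvB complex and the CCAAT box by NF-Y. Promoters of 48 members were found in the RefSeq table of GRCm38.p6. In the 250 bases before the start, 16 of the 48 (33.3%) held TTTGAA on either strand, against 15.1% of 17491 protein-coding genes. A CCAAT box, searched as CCAAT on either strand, was in 35 (72.9%), against 36.5% of all, and 20 members held 2 or more, 41.7% against 12%. The CHR-like letters TTCGAA were in 1 member. An E2F motif, searched as TTCGCGC and as its variants TTGGCGC or else TTCCCGC on either strand, was in 7 (14.6%), against 8.78%. When the 50 bases after the start were added, a window chosen after seeing the data, 32 of the 48 (66.7%) held the CHR, against 16.5% of all. In the 100 bases centred on the start, also chosen afterwards, 29 (60.4%) did, against 3.98%. Overlapping matches were counted, and the share is per gene, taken at its most upstream start in the table. For 9 of the 48 that start lay over 100 bases inside the annotated gene. These are letter matches and not measured binding sites.

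The upstream sequences of 8 members are shown, because 7 of them carry a CHR, a CCAAT box or both before the start, and Birc5 carries neither. A CHR lay in the 150 bases before the start in 15 of the 48 members and a CCAAT box in 32. Each is the 150 bases before the RefSeq start in GRCm38.p6, written 5′ to 3′ on the strand of the gene, with CHR, CHR-like and CCAAT matches of either strand in capitals.
Cdk1 (chr10:69352913-69353062, minus strand): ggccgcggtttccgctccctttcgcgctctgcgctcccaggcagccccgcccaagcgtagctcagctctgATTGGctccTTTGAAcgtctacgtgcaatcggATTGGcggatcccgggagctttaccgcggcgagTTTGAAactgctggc
Cdc20 (chr4:118437344-118437493, minus strand): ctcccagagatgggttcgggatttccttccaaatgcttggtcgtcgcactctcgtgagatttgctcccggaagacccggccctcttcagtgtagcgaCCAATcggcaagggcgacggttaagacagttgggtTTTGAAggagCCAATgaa
Ube2c (chr2:164769779-164769928, plus strand): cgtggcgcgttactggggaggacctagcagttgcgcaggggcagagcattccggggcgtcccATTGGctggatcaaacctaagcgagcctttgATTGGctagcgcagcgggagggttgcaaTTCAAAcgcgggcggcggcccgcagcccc
Ccnb2 (chr9:70421555-70421704, minus strand): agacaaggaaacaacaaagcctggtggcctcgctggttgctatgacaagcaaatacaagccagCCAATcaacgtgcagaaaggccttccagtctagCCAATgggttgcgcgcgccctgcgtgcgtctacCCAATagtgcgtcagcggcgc
Kif11 (chr19:37376232-37376381, plus strand): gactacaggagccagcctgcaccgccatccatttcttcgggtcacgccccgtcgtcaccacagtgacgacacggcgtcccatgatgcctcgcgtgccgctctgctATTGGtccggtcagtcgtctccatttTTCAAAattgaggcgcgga
Smc2 (chr4:52439071-52439220, plus strand): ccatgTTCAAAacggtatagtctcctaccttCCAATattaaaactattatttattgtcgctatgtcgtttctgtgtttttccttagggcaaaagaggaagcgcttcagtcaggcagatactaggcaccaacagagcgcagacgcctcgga
Cdca8 (chr4:124936918-124937067, minus strand): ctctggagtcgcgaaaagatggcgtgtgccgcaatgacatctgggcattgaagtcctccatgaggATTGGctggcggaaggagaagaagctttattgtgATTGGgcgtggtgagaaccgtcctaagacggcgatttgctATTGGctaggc
Birc5 (chr11:117849087-117849236, plus strand): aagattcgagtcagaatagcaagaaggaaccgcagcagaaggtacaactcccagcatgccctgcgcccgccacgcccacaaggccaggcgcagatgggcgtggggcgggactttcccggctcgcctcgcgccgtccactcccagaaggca
Positions count back from the start, whose preceding base is -1, and give the leftmost base of a match. In Cdk1, TTTGAA began at -71 and -15 and CCAAT boxes at -80 and -48, 32 bases apart. In Ccnb2, CCAAT boxes began at -87, -54 and -21, each 33 bases from the next. In Ube2c a CHR at -29 followed CCAAT boxes that were 31 bases apart, and in Cdca8 the boxes were 34 and 40 bases apart. In Cdc20 and Kif11 the CHR began at -18 and -19. In Smc2 the CHR and the CCAAT box lay farther out, at -145 and -119. Birc5 held none of these letters in the 150 bases, nor in the whole 300, as did 7 other members, Nusap1, Cit, Ncaph, Kif18a, Pttg1, Mad2l1 and Nuf2.

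Of the 56 members, 53 were higher in DFAT cells, 2 were lower and 1 did not pass the test (limma, Benjamini-Hochberg adjusted p under 0.05 over all probe sets). Over all 18193 genes, 22.6% were higher and 23.8% were lower, 46.4% in all. Over all probe sets the split was 9152 higher and 8133 lower. It was 10782 and 6338 with arrays centred on their medians, 6051 and 21069 with reference genes and 12442 and 3405 with hybridization controls. Of the 11 reference genes, 6 were themselves higher in DFAT cells and 2 were lower. At least 4-fold higher, a log2 difference of 2 or more, were 51 members, against 4.78% of all genes, and none was 4-fold lower, against 6.65%. In 53 members every DFAT array lay above every AC array, which held for 27.5% of all genes, and in 2 members every DFAT array lay below, as in 32.5% of all genes. The median difference of the members was 4.57 on the log2 scale, and that of all genes was -0.10. Of the 100 genes with the largest increase, 27 were members, and of the 500 with the largest, 50 were. Over the 132 probe sets of the members, 109 were higher, 4 were lower and 19 did not pass the test, against 20.3% higher and 18.1% lower over all probe sets. Counts of members higher ranged from 53 to 54 over the alternatives that kept the test.

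**Figure D1:**
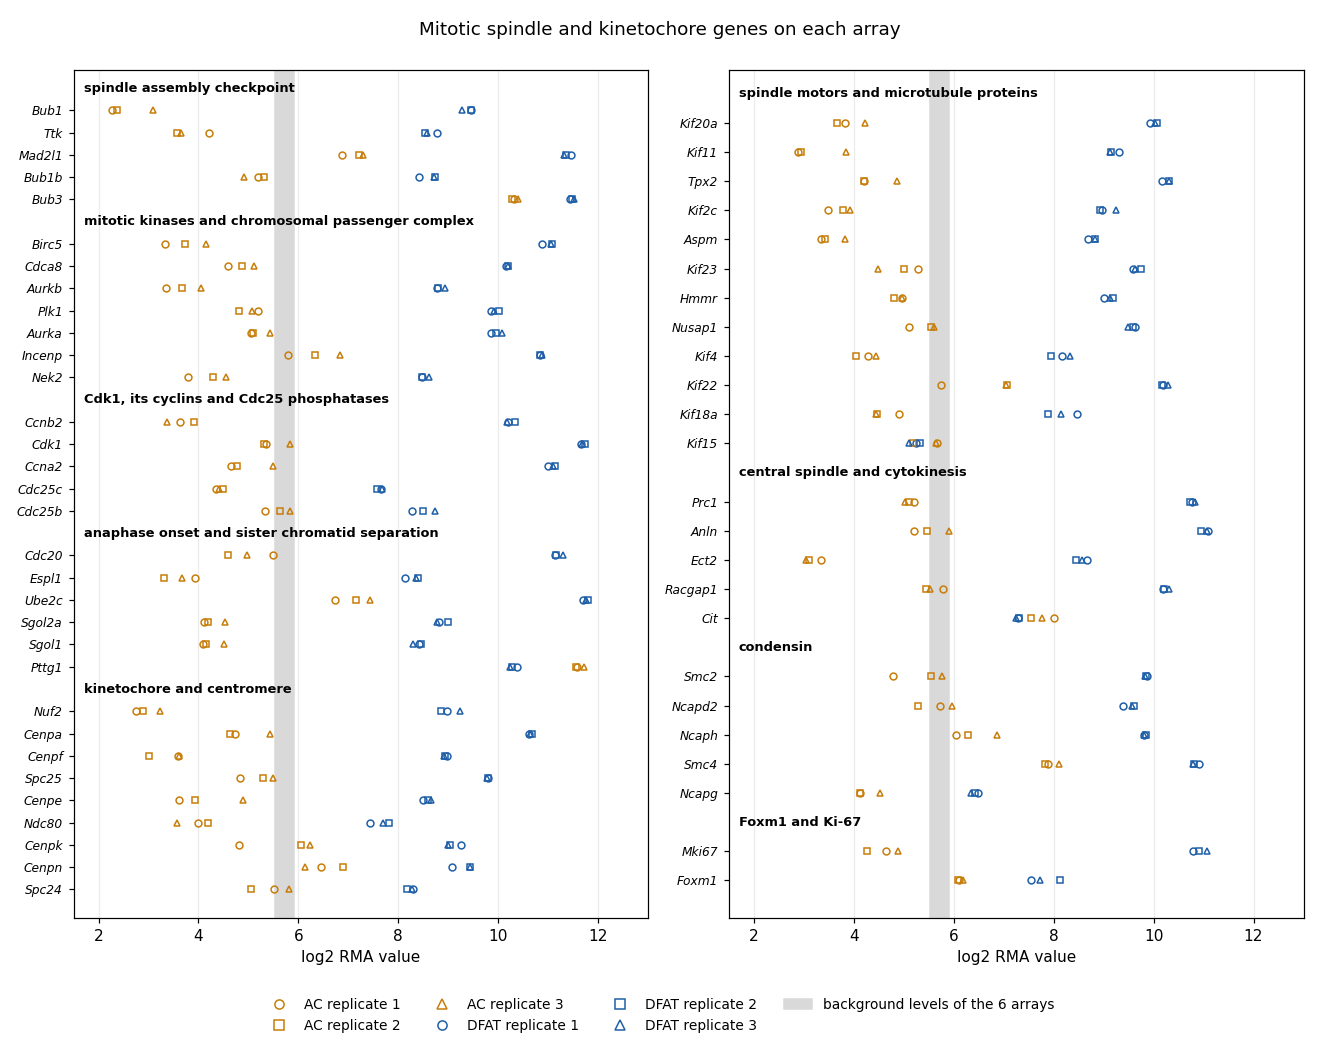
Log2 RMA values of the 56 measured members on the 3 AC and 3 DFAT arrays, by role, with each point an array and the grey band the background levels of the 6 arrays, 5.53 to 5.91. For 53 genes the DFAT points lie to the right of all AC points, and Pttg1, Cit and Kif15 are the exceptions.

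RMA values carry no detection call, so a background level was set on each array at the 95th percentile of 92 probe sets for 65 genes of lens, retina, inner ear, nose, tongue and sperm. A gene counted as at background level where none of the 3 arrays of a group exceeded it. Of the 65 genes themselves, 57 were at this level in AC and 59 in DFAT cells. In DFAT cells 7 of them were called lower, 2 at least 4-fold, and 1 higher. The list is thus not free of genes that differed between the groups. In AC, 39 of the 56 members were at background level, against 39.3% of all genes. In DFAT cells 1 was, Kif15, against 44.4% of all genes. At the 90th and 99th percentiles, 28 and 45 members were at background level in AC. Where AC was at background level, the fitted difference has no exact size, and a bound is given as well, the mean of the DFAT arrays over the mean of the AC arrays with AC values under the background level raised to it. By this bound, 48 members exceeded AC at least 4-fold. Each bound holds for the brightest probe set of a gene and for the 95th percentile. Other probe sets or a higher percentile can give less.

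The 5 measured genes of the spindle assembly checkpoint all rose. Bub1, a kinase that recruits other checkpoint proteins to kinetochores, had log2 values of 2.27, 2.37 and 3.08 on arrays of AC against 9.45, 9.45 and 9.28 on those of DFAT cells. All AC values were at background level and all DFAT values far above it, a difference of 6.82 (95% confidence interval 6.30 to 7.33, adjusted p = 2.95e-07 from limma). By the bound, the level on this probe set was at least 12.9-fold higher. The other probe set of Bub1 had a difference of 2.99 and was at least 1.19-fold higher. Ttk (Mps1), the kinase that starts checkpoint signalling, had 4.21, 3.57 and 3.64 in AC against 8.77, 8.53 and 8.56 in DFAT cells, at least 7.58-fold higher. Its other probe set was at background level in both groups and did not pass the test. Mad2l1, whose protein binds Cdc20 and holds it inactive, differed from Bub1 and Ttk in that AC was above background level. Its values were 6.88, 7.21 and 7.29 in AC against 11.45, 11.35 and 11.32 in DFAT cells, a difference of 4.25 (95% confidence interval 3.90 to 4.60). Bub1b (BubR1), which acts in the same inhibitory complex, rose by 3.47 on the log2 scale. Bub3, a partner of Bub1 and BubR1, was already bright in AC, at 10.31, 10.27 and 10.39, and rose least, to 11.43, 11.48 and 11.52. Its groups did not overlap, and its difference was 1.15 (95% confidence interval 0.87 to 1.43).

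All 7 genes of the mitotic kinases and the chromosomal passenger complex rose, with differences from 4.30 for Nek2, a centrosome kinase, to 7.26 for Birc5. Birc5 (survivin), which brings the complex to centromeres, had 3.33, 3.74 and 4.16 in AC against 10.88, 11.07 and 11.06 in DFAT cells. Its rank was 4 among the increases of all genes, and its level was at least 39.5-fold higher. Cdca8 (borealin), another subunit, had 4.59, 4.87 and 5.10 in AC against 10.15, 10.19 and 10.20 in DFAT cells. Aurkb, the kinase of the complex, had 3.34, 3.66 and 4.04 in AC against 8.78, 8.79 and 8.92 in DFAT cells. For all of these, the AC arrays were at background level and the DFAT arrays were within 0.20 of each other. Incenp, the scaffold of the complex, was the only gene of this class above background level on the AC arrays, at 5.79, 6.33 and 6.82, and had 10.84, 10.83 and 10.88 in DFAT cells. Its 5 probe sets had differences from 0.22 to 4.53, and the dimmest did not pass the test. Aurka and Plk1, kinases of the centrosome and of mitotic entry, rose by 4.77 and 4.90.

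Cdk1 and its partners were among the largest differences. Ccnb2, a B-type cyclin, had 3.64, 3.91 and 3.37 in AC against 10.19, 10.34 and 10.16 in DFAT cells, a difference of 6.59 (95% confidence interval 6.21 to 6.98, adjusted p = 1.17e-07 from limma). Cdk1 itself had 5.34, 5.31 and 5.83 in AC against 11.65, 11.73 and 11.67 in DFAT cells, a level at least 63.4-fold higher. Ccna2, the A-type cyclin of S phase and mitotic entry, had 4.65, 4.77 and 5.48 in AC against 10.99, 11.13 and 11.09 in DFAT cells. All AC values of these genes were at background level and no DFAT value came near them. The phosphatases that activate Cdk1 rose by less. Cdc25b rose by 2.90 from values of 5.32, 5.63 and 5.83, of which only that of AC replicate 2 exceeded the background level of its array, and Cdc25c rose by 3.21.

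Genes that set off anaphase went in opposite directions. Cdc20, the activator of the anaphase promoting complex, had 5.49, 4.60 and 4.97 in AC against 11.13, 11.16 and 11.30 in DFAT cells. It was at least 45.2-fold higher on this probe set, and at least 29.8-fold and 3.11-fold higher on its others. Ube2c, the ubiquitin-conjugating enzyme that works with the complex, had 6.74, 7.15 and 7.42 in AC against 11.69, 11.79 and 11.76 in DFAT cells, a difference of 4.64. Espl1, the separase that cuts cohesin, had 3.92, 3.31 and 3.66 in AC against 8.13, 8.40 and 8.35 in DFAT cells, and the AC arrays were at background level. The shugoshins Sgol1 and Sgol2a, which protect cohesin at centromeres, rose by 4.14 and 4.58. Pttg1 (securin), the inhibitor that holds separase until anaphase, was the exception. It had 11.58, 11.56 and 11.72 in AC against 10.37, 10.28 and 10.23 in DFAT cells. Every DFAT array lay below every AC array, a fall from 11.62 ± 0.09 to 10.29 ± 0.07 (SD, n = 3 each) with a difference of -1.33 (95% confidence interval -1.62 to -1.04, adjusted p = 8.89e-05 from limma). Another of its 3 probe sets also fell by 1.33, and the third, with 6.78, 5.11 and 5.24 in AC against 5.22, 5.13 and 4.98 in DFAT cells, did not pass the test. The probe set that stands for Pttg1 ends in _s_at and may match other transcripts, while its counterpart with the same difference ends in _a_at. Over all alternatives the difference of Pttg1 lay between -1.72 and -0.87, and it stayed past the test.

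Kinetochore and centromere genes all rose, 9 of 9, with a median difference of 4.44. Nuf2, of the Ndc80 complex that grips microtubules, had 2.75, 2.89 and 3.22 in AC against 8.97, 8.86 and 9.23 in DFAT cells. Its partners Spc25, Ndc80 and Spc24 rose by 4.57, 3.73 and 2.79, so the 4 subunits, which form a complex with 1 copy of each, differed in fitted size. As AC was at background level for all 4, these sizes are not exact. Cenpa, the histone H3 variant that marks centromeres, had 4.73, 4.63 and 5.43 in AC against 10.62, 10.67 and 10.63 in DFAT cells. On this probe set it was at background level in AC and at least 30.7-fold higher in DFAT cells. On another it rose by 2.05 and was at least 1.42-fold higher. A further probe set of Cenpa, ending in _x_at, passed the test as lower, with 3.36, 3.40 and 3.09 in AC against 2.73, 2.68 and 2.85 in DFAT cells, all at background level. Cenpf, a large protein of the outer kinetochore, had 3.58, 3.02 and 3.61 in AC against 8.97, 8.93 and 8.91 in DFAT cells. Cenpe, a kinesin that moves chromosomes to the spindle equator, rose by 4.44, and Cenpk and Cenpn of the inner kinetochore rose by 3.39 and 2.81.

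Among 12 motors and microtubule proteins of the spindle, 11 rose and Kif15 did not pass the test. Kif20a, a kinesin of the central spindle, had 3.82, 3.66 and 4.22 in AC against 9.92, 10.06 and 10.03 in DFAT cells. Kif11 (Eg5), which pushes spindle poles apart, had 2.89, 2.95 and 3.84 in AC against 9.30, 9.14 and 9.13 in DFAT cells. Both were at background level in AC, with differences of 6.11 and 5.96. Tpx2, which activates Aurora A on microtubules, had 4.21, 4.20 and 4.86 in AC against 10.17, 10.31 and 10.31 in DFAT cells, at least 23.6-fold higher. Its 4 probe sets were unlike, and 2 of them did not pass the test. Kif15, a kinesin that shares the work of Eg5, had 5.67, 5.19 and 5.64 in AC against 5.24, 5.32 and 5.10 in DFAT cells on its single probe set. These groups overlapped near the background level, with a difference of -0.28 (95% confidence interval -0.67 to 0.11, adjusted p = 0.238 from limma), and centring on the hybridization controls gave 0.18. The other kinesins, Kif2c, Kif23, Kif4, Kif22 and Kif18a, rose by 5.32, 4.74, 3.88, 3.60 and 3.55. Aspm, Hmmr and Nusap1, which organize spindle poles and microtubules, rose by 5.24, 4.20 and 4.15.

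Of the 5 genes of the central spindle and cytokinesis, 4 rose and Cit passed the test as lower. Prc1, which bundles microtubules between the separating chromosomes, had 5.21, 5.11 and 5.03 in AC against 10.78, 10.73 and 10.82 in DFAT cells. Its difference of 5.66 had the smallest adjusted p among the members (7.24e-08 from limma). Anln (anillin), of the contractile ring, had 5.21, 5.47 and 5.91 in AC against 11.09, 10.95 and 11.07 in DFAT cells. Ect2, which switches on RhoA for the ring, had 3.35, 3.11 and 3.04 in AC against 8.66, 8.45 and 8.56 in DFAT cells. All of these were at background level in AC, and Racgap1, the partner of Ect2, rose by 4.64. Cit (citron kinase) was represented by a probe set ending in _x_at with 8.0, 7.54 and 7.77 in AC against 7.28, 7.32 and 7.24 in DFAT cells, a difference of -0.49 (adjusted p = 0.0352 from limma). Its other 3 probe sets all rose, by 3.54, 1.99 and 1.09, the last at background level in both groups. The brightest of those had 5.18, 4.90 and 4.92 in AC against 8.41, 8.61 and 8.59 in DFAT cells, so the direction of Cit depends on the probe set. Averaged over its probe sets Cit was higher by 1.53. The call as lower was lost without AC replicate 3 (adjusted p = 0.0716 from limma) and without DFAT replicate 1, 2 or 3 (adjusted p = 0.0996, 0.0962 and 0.117 from limma).

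**Figure D2:**
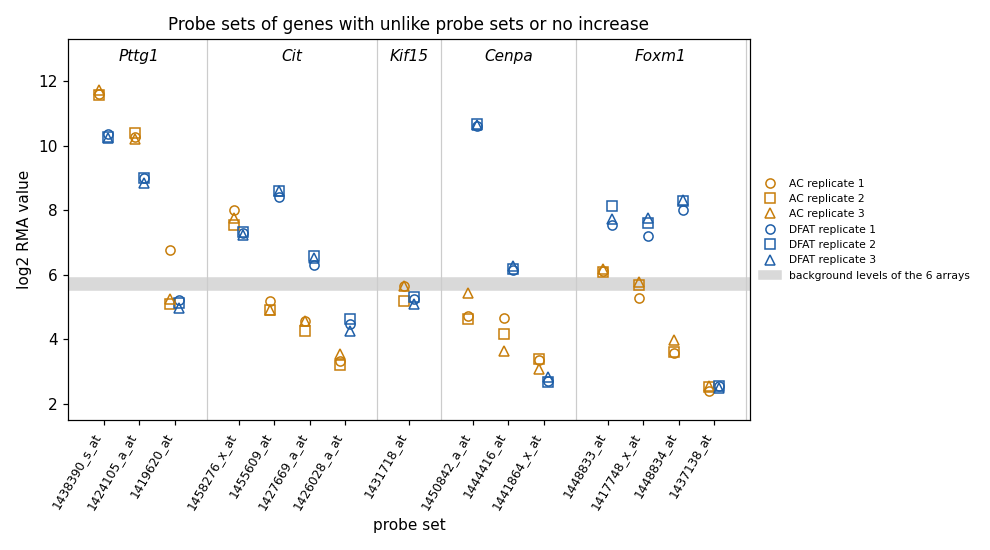
Log2 RMA values of every probe set of Pttg1, Cit, Kif15, Cenpa and Foxm1 on the 3 AC and 3 DFAT arrays, with the grey band the background levels of the 6 arrays. Pttg1 is lower in DFAT cells on both of its bright probe sets, and for Cit the _x_at probe set alone is lower.

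The 5 genes of condensin, the ring that compacts chromosomes, all rose. Smc2, an ATPase common to both condensins, had 4.79, 5.55 and 5.77 in AC against 9.87, 9.85 and 9.82 in DFAT cells. Its partner Smc4 was above background level in AC and rose by 2.90. Ncapd2 had 5.72, 5.28 and 5.97 in AC against 9.38, 9.60 and 9.57 in DFAT cells. Ncaph had 6.05, 6.28 and 6.86 in AC against 9.81, 9.85 and 9.81 in DFAT cells. The groups of these genes did not overlap, and the differences were 4.48 for Smc2, 3.86 for Ncapd2 and 3.42 for Ncaph. Ncapg, the remaining subunit of condensin I, had 4.12, 4.12 and 4.53 in AC against 6.49, 6.43 and 6.34 in DFAT cells, a difference of 2.16 and at least 1.65-fold higher by the bound. Its other probe set had 2.35, 2.28 and 2.51 in AC against 7.88, 7.91 and 7.87 in DFAT cells, a difference of 5.50 and at least 4.56-fold higher, so the size of the rise of Ncapg depends on the probe set. Of the counterparts in condensin II, Ncapg2, Ncapd3 and Ncaph2, which are no members, the differences were 3.90, 1.47 and 0.92.

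Mki67 (Ki-67), which coats mitotic chromosomes and is a common marker of dividing cells, had 4.64, 4.27 and 4.88 in AC against 10.79, 10.90 and 11.06 in DFAT cells. AC was at background level, and DFAT cells were at least 37.3-fold higher. Foxm1, a transcription factor that drives many of the genes above, had 6.11, 6.09 and 6.19 in AC against 7.55, 8.13 and 7.73 in DFAT cells on its brightest probe set, a rise of 1.67 (95% confidence interval 1.27 to 2.07). On another of its 4 probe sets it had 3.59, 3.60 and 3.98 in AC against 8.02, 8.28 and 8.33 in DFAT cells, a difference of 4.48, and the size of its rise thus depends on the probe set.

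**Figure D3:**
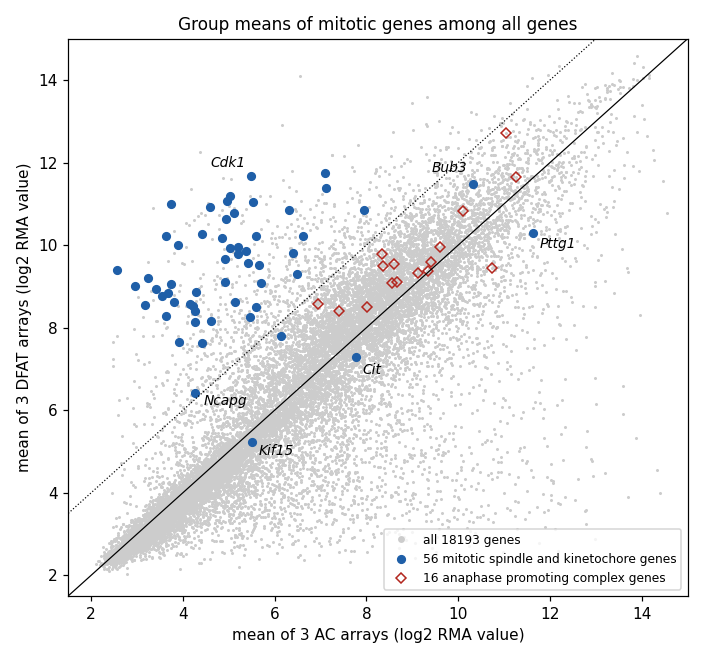
Mean log2 RMA value of the 3 DFAT arrays against that of the 3 AC arrays for all 18193 genes, with the 56 members and 16 genes of the anaphase promoting complex marked. Points on the solid line are equal, those on the dotted line 4-fold higher in DFAT cells, and 51 members lie above the dotted line while none of the 16 genes does.

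AC were not without signal for these genes. On all 3 AC arrays 11 members lay above the background level, Bub3, Mad2l1, Incenp, Ube2c, Pttg1, Cenpn, Kif22, Cit, Smc4, Ncaph and Foxm1. On some arrays 6 more did so. These counts rest on the brightest probe set of each gene. Every other probe set of Kif22, Cenpn, Cit and Ncaph was at background level in AC. Further probe sets of Bub3, Incenp and Foxm1 were mixed, and those of Pttg1 and Smc4 were not at background level. The mean over the 56 members was 5.00, 5.05 and 5.31 on AC replicates 1, 2 and 3 and 9.40, 9.44 and 9.46 on the DFAT arrays. On AC replicate 3, 38 of the 56 had their highest AC value. On replicate 1, 27 had their lowest and 12 their highest. Kif22, a chromosome-bound kinesin, had 5.76 on AC replicate 1 and 7.06 and 7.04 on the others, and Cenpk had 4.81 against 6.05 and 6.23. AC replicate 1, low for both genes, was also low in the macrophage and leukocyte markers, with 6.58 against 8.06 and 8.19. Of these markers, 14 of 15 were above background level on some AC array. The same replicate was highest in the endothelial markers (9.65 against 7.92 and 7.74) and in the epithelial markers (9.65 against 8.98 and 9.01). Without AC replicate 1, Kif22 and Cenpk rose by 3.17 and 2.95. The part of other cell types in these AC values was not tested. Lymphocyte markers were near background level, with 6 of 7 at it in AC. Among the DFAT arrays the members varied little, with a median SD of 0.08 against 0.29 in AC, where all genes had 0.11 and 0.24.

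Other genes of mitosis, listed with earlier results of these data known, had median differences of 0.51 to 2.92 by list, against 4.57 for the members. The counts below stand beside 22.6% of all genes higher and 23.8% lower. Of 31 further kinetochore and centromere genes measured, 27 rose and 1 fell, with a median difference of 2.61. Trip13, an ATPase that remodels Mad2, rose by 6.34, Ska1, which couples kinetochores to microtubules, by 4.74 and Cenpi of the inner kinetochore by 4.65, while Cenpx, a histone-fold protein, fell by 1.0. Of 30 further spindle, centrosome and cytokinesis genes, 24 rose and none fell. Cep55, needed for the final cut between daughter cells, rose by 6.37, Ckap2 by 5.30 and Depdc1a by 5.25. Kif14 was at background level in both groups. Of 14 further regulators of mitotic entry, 10 rose, led by the kinases Pbk at 6.46 and Melk at 5.34 and by Fbxo5 (Emi1), an inhibitor of the anaphase promoting complex, at 4.62. Wee1, which opposes Cdc25 on Cdk1, rose by 1.44, and Pkmyt1, with the same role, did not pass the test at 0.32.

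For the complexes that follow, the median differences were 0.92, 0.51 and 1.08. Among all genes 22.6% were higher and 23.8% lower, with 4.78% at least 4-fold higher and 6.65% at least 4-fold lower. Of 16 genes of condensin II, cohesin and its regulators, 11 rose, none fell and 3 were at least 4-fold higher, namely Cdca5 (sororin), which holds sister chromatids together after replication, at 5.90, the acetyltransferase Esco2 at 4.58 and Ncapg2 at 3.90. The cohesin ring itself, Smc1a, Smc3 and Rad21, rose by 0.57, 1.42 and 1.5. Of 16 genes of the anaphase promoting complex, 9 rose and 1 fell, and none differed 4-fold. Ube2s, which extends ubiquitin chains, rose by 1.67, the activator Fzr1 (Cdh1) by 1.62 and the catalytic subunit Anapc11 by 1.45, while Anapc13 fell by 1.30. Their activator Cdc20 and enzyme Ube2c, described above, rose by 6.18 and 4.64. Centring on reference genes left 5 of the 16 higher and 1 lower. The MuvB core and its partner B-Myb have 6 genes here, and 4 rose, with Mybl2 (B-Myb) at 3.27, Lin9 at 2.07 and Lin54 at 1.29.

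Kinesins were counted by their known role, and mitotic kinesins outside the members, such as Kif14, were left out of this count. Of the 8 kinesins of the Kif series among the members, 7 were at least 4-fold higher, and the median difference was 4.31. Of 23 measured kinesins and kinesin subunits of cargo transport and other interphase roles, 7 rose, 5 fell and 11 did not pass the test. None differed 4-fold, and the median difference was 0.04. Over all genes, 22.6% were higher and 23.8% were lower, with 4.78% at least 4-fold higher and 6.65% at least 4-fold lower. Kif26b rose by 1.67, Kif5c, a heavy chain of conventional kinesin, by 1.41 and Kif3c by 0.79. Kif1b, which carries organelles along axons, fell by 1.86 and Kif13b by 1.44, while Kif26a, called lower by 1.67, was at background level in both groups. The split of 7 higher and 5 lower was 2 and 10 with arrays centred on reference genes, 7 and 3 with hybridization controls, and 6 and 9 without AC replicate 1. Without AC replicate 3, 4 were higher, and without DFAT replicate 1, 2 or 3 the number was 4, 3 and 3. Of 14 measured tubulins, 7 rose and 5 fell. The beta tubulins Tubb3, Tubb2b and Tubb6 rose by 3.30, 2.45 and 2.39, and Tuba8 and Tuba4a fell by 1.46 and 0.97, while Tubg2, called lower by 0.67, was at background level in both groups. The split of the tubulins was 8 and 3 when arrays were centred on their medians, 5 and 5 with reference genes and 8 and 1 with hybridization controls. Without AC replicate 3, 8 were higher and 2 were lower, and without any DFAT array the split was 5 and 2.

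**Figure D4:**
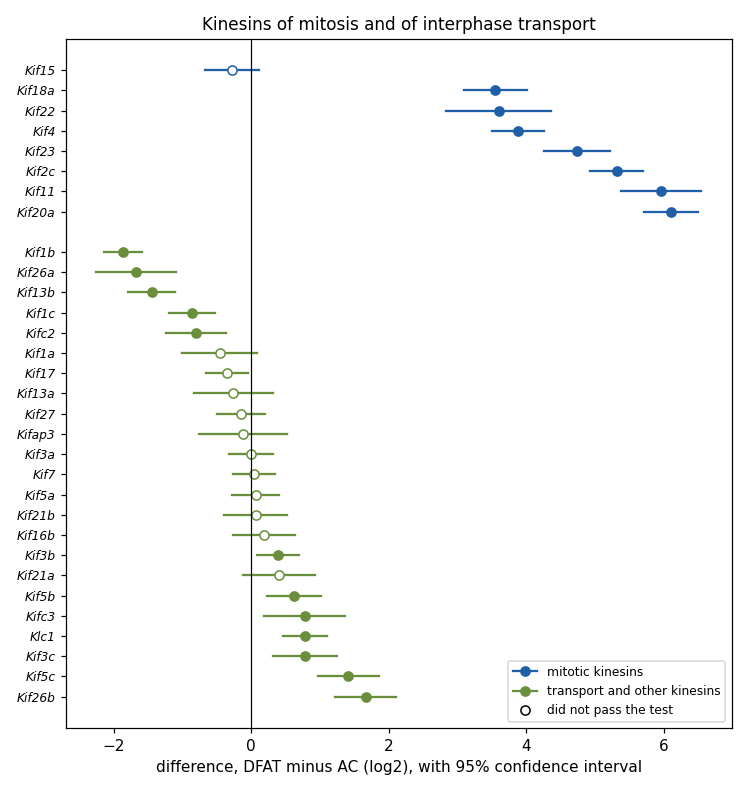
Difference between DFAT cells and AC on the log2 scale, with its 95% confidence interval from limma, for the 8 kinesins of the Kif series among the members and for 23 kinesins and kinesin subunits of interphase roles. Member kinesins other than Kif15 lie between 3.55 and 6.11, and the interphase kinesins between -1.86 and 1.67. Open points are genes that did not pass the test.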

How the data were processed

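The data were 6 Affymetrix whole-genome mouse GeneChip arrays, 3 of AC and 3 of DFAT cells, grouped by the sample titles. The values deposited by the authors were log2 expression values after RMA, run in R with the package affy according to the methods; versions and the set of arrays normalized together are not given in the sources used here. RMA values keep no detection call, and the depth of an array has no count. The number of arrays limits the precision. Hepatocyte and liver stem cell arrays were not analysed here.

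Gene names came from the annotation of the array platform. Of 45037 probe sets tested, 34945 have 1 gene symbol, 932 several and 9160 none, and 64 control probe sets were left out. The comparison of DFAT cells with AC used limma 3.58.1 under R 4.3.3, with lmFit, eBayes and two-sided p-values adjusted by Benjamini-Hochberg across every probe set (threshold 0.05) and no filter. Exact permutation of 3 and 3 arrays gives p of 0.1 at least and was not used. On simulated data of 45037 probe sets, of which 200 were changed, the step called 39.7% of the probe sets shifted by 1 on the log2 scale, 90.9% of those shifted by 2 and 93.9% of those shifted by 4. Of the others it called 0.018%, and with none changed it called 0. The simulation gave both groups the same spread for a probe set and changed few probe sets. In the data 38.4% of probe sets were called and the groups differed in spread, so these shares may not apply there.

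The members, gene lists, roles and motifs were chosen with earlier results of these data known. Values on every array are given for the 3 members of each role that differed most among those passing the test without overlap, for members that fell or did not pass, and for those with a probe set called the other way. Others printed were chosen after their values were seen. Of the 56 representatives, 13 end in _x_at or _s_at and may match other transcripts: those of Bub3, Aurkb, Nek2, Incenp, Cdca8, Cdc25c, Cdc20, Pttg1, Kif2c, Kif22, Prc1, Cit and Ncaph. Of 39 members with several probe sets, 21 had 1 call throughout, 16 had probe sets short of the threshold, and for Cit and Cenpa another was called the other way. Promoters came from RefSeq (GRCm38.p6), and for 9 members no promoter was used, Aurkb, Incenp, Ccna2, Cdc25c, Spc24, Kif20a, Tpx2, Smc4 and Foxm1. Same-numbered AC and DFAT arrays were checked for pairing. Alternatives were other scalings, a floor, a filter on dim probe sets, other variances, array weights, a replicate block, other probe sets, and leaving out each array. Python 3.11.15 with pandas 2.3.3 and matplotlib 3.10.9 made tables and figures.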

Additional observations from a re-analysis of the deposited data

How the results depend on the processing

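For 54 of the 56 members, direction and call were the same under all 17 alternatives to the fit, and Cit and Kif15 were the exceptions. Between 53 and 54 members were higher in these, with 51 by the fold rule of the methods alone, and 48 to 52 were at least 4-fold higher. Centring on 11 reference genes moved the median difference of all genes from -0.10 to -0.49, and centring on the hybridization controls moved it to 0.36. The reference genes themselves differed before centring, with 6 of the 11 higher in DFAT cells, 2 lower and a median difference of 0.51. In place of 2 members lower, there was 1 when arrays were centred on their medians or on the hybridization controls, with the replicate block, with the mean over the probe sets of a gene and with the brightest probe set not ending in _x_at or _s_at, where Cit was higher by 1.53 and 3.54 in the last 2. By the fold rule alone the number was 0, and without each array in turn it was 1 to 2, with 1 without AC replicate 3 or without any DFAT array. Kif15 had a difference of 0.18 with the hybridization controls, and it was lower by the test (-0.67, adjusted p = 0.0225 from limma) with the reference genes. With the background level at the 90th percentile, the number of members at it in DFAT cells was 0. In the fit with the replicate block, 53 members were higher and 1 was lower, and Cit had an adjusted p of 0.0658 from limma. Whether same-numbered arrays share an origin is not given by labels or methods. Deviations of same-numbered arrays from their group means had correlations of -0.02, -0.03 and 0.01 over all probe sets. These values gave no sign of pairing, but shared animals or dishes were not tested. Over all probe sets 8639 were higher and 7384 lower with the block, against 9152 and 8133. Of the other mitotic genes, 2 fell in the fit as reported, 7 with reference genes and 1 with hybridization controls. Of the transport kinesins, 2 were higher and 10 lower with reference genes and 3 were lower with hybridization controls, and without each array 3 to 6 were higher and 5 to 9 lower, with 9 lower without AC replicate 1. Of the tubulins, 3 were lower with array medians and 1 with hybridization controls, and without each array 5 to 8 were higher and 2 to 5 lower. The cause of these changes was not tested. Cit was higher only where its other probe sets entered, while its call as lower was otherwise lost on the same _x_at probe set. No member was left out as dim. The filter used the mean over all 6 arrays, so a member dim in AC could pass by its DFAT values. For such members this alternative was no separate check. The brightest probe set not ending in _x_at or _s_at could change only members represented by such a probe set, and Aurkb has no other kind. The mean over probe sets left the values of members with a single probe set as they were. Neither was a separate check for the members it left unchanged.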
